A study of Homo sapiens with 64 samples.

Results

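The 10 genes CREB1, CREM, ATF1, CRTC1, CRTC2, CRTC3, CREBBP, EP300, SIK1 and SIK2 make up the core of the CREB pathway, and their expression was followed in BEAS-2B cells given a glucocorticoid, a beta2-adrenoceptor agonist or both. Genes were matched by their symbol in the annotation of the array, and for each the probe set with the highest average across the 64 arrays was taken. Of the 10 genes, 8 had at least 1 probe set annotated to them alone, with 35 such probe sets in all and between 1 and 10 for each gene, among 18132 genes measured in this way. SIK1 was covered by a single probe set that is also annotated to LOC102724428, a near-identical copy of SIK1 on the same chromosome, so signal from the copies cannot be told apart. It is called the SIK1/LOC102724428 probe set here, and its values are given beside the 8 genes but not counted with them. ATF1 was not analysed here.

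In this pathway, cyclic AMP frees the catalytic subunits of protein kinase A, which phosphorylate CREB1, CREM and ATF1 bound at cyclic AMP response elements. The phosphorylated factors recruit the histone acetyltransferases CREBBP and EP300. CRTC coactivators are held in the cytoplasm by SIK kinases until protein kinase A inhibits those kinases, and both CREM, through the short repressor forms known as ICER, and SIK1 are textbook cyclic AMP-induced genes that act back on the pathway.

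BEAS-2B is an immortalised line derived from human bronchial epithelium, here serum-starved overnight before treatment. Cells were left untreated (NS), or received budesonide, an inhaled glucocorticoid, at 100 nM, formoterol, a long-acting agonist that raises cyclic AMP, at 10 nM, or both drugs at those doses. RNA was taken after 1, 2, 6 and 18 h, which gave 16 groups of 4 arrays described as independent determinations, and untreated cells were sampled at each of those times. The model is 1 cell line, and all values are RNA levels as log2 intensities per probe set.

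The array medians lay between 4.87 and 4.95 log2 units, and the median and lower quartile of all values were 4.9 and 3.02. Of 8 epithelial markers measured, KRT8, KRT18 and CLDN1 lay above that median in every group, while CDH1 had a mean of 4.25 and EPCAM one of 2.50, so the defining epithelial adhesion genes were low. The mesenchymal markers VIM, CDH2 and FN1 were above the median in every group, 0 of 3 leukocyte markers were, and PTPRC and CD14 lay below the lower quartile throughout. Both drugs left their known traces: TSC22D3, a glucocorticoid target, rose by 3.94 to 5.20 with budesonide, and NR4A3, a cyclic AMP target, rose by 5.29 at 1 h and 6.28 at 2 h with formoterol. The gap between the 3' and 5' probe sets of beta-actin, which widens as RNA degrades, was widest in replicate 1 in every group at 1, 6 and 18 h and in replicate 3 in every group at 2 h.

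Promoter windows of RefSeq transcripts (GRCh38.p14), each 250 bases before to 50 bases after a transcript start, were found for 9 of the 10 genes. The windows below belong to 3 genes and are shown because the RNA of these genes moved with formoterol and because CREM has 7 windows that differ. Capitals mark the full cyclic AMP response element TGACGTCA, its variants TGANGTCA (any base at N, a pattern chosen after the sequences had been read) and, in windows without either, the core TGACG, on either strand.

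CREM, start inside the gene, chr10:35195652-35195951, plus strand: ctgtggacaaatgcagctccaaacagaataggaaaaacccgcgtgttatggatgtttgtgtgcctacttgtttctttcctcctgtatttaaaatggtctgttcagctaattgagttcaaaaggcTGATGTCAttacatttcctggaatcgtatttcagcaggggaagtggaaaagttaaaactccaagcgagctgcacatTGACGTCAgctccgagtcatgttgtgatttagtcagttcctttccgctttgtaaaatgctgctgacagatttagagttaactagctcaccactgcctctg

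CREM, start inside the gene, chr10:35194883-35195182, plus strand: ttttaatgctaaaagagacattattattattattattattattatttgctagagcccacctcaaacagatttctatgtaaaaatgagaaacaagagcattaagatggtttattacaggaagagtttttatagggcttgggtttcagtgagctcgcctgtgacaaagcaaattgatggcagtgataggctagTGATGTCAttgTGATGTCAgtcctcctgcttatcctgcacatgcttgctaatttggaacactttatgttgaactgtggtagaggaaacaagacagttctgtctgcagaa

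CREM, start near the gene's 5′ end, chr10:35126977-35127276, plus strand: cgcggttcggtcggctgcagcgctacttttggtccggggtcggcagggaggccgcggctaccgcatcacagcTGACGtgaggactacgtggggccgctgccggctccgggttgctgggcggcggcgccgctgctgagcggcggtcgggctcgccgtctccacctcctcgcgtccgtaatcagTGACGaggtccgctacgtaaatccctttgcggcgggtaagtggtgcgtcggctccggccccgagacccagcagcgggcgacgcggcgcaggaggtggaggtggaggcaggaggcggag

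SIK2, chr11:111602199-111602498, plus strand: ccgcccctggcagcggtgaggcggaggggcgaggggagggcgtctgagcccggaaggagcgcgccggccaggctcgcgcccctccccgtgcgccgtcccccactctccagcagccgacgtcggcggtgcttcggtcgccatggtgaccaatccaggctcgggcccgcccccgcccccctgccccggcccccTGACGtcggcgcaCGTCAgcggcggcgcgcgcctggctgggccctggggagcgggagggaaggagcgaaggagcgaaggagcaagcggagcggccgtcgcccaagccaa

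SIK1, chr21:43427082-43427381, minus strand: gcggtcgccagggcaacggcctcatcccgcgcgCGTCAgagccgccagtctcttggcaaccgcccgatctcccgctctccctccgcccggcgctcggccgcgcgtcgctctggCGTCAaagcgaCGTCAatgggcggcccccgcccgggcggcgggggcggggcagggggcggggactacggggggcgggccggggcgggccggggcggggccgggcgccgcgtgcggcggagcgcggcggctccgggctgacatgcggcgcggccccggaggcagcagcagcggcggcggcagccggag

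The CREM gene spans 35126846 to 35212958 on chromosome 10, and the first pair of windows lies far inside it. The window from 35195652 held TGACGTCA 50 bases before its start, which 1.848% of 35116 RefSeq promoter windows of this length hold, and a TGANGTCA match 126 bases before it. The window from 35194883 held TGANGTCA matches 59 and 48 bases before its start. At least 1 such match, which includes TGACGTCA, occurred in 7.717% of all windows and at least 2 in 0.43%. These shares are for single windows, and CREM has 7, so a match in any of them is likelier than the shares. The CREM window from 35195600 overlaps that from 35195652 and held the same TGACGTCA. That from 35167314 held a TGANGTCA match 56 bases before its start. Of the 3 windows at the 5′ end of the gene, those from 35126596 and 35126751 held none of these patterns, and that from 35126977 held 2 copies of TGACG. SIK2 held 2 copies of TGACG, 59 and 46 bases before the start, and SIK1 held 3, at 217, 137 and 126 bases before it. The 5-base core is part of TGACGTCA and is common, with at least 1 copy in 24.553% of windows and at least 2 in 6.023%. The SIK1 and LOC102724428 windows were identical over all 300 bases. Among the genes that did not pass with formoterol, a CREBBP window held 2 copies of the core, as many as SIK2, and that of CRTC3 held 1, while the CREB1, CRTC1 and EP300 windows held none of the patterns. These matches describe letters, and binding was not measured.

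Formoterol raised CREM and SIK2 at 2 and 6 h and the SIK1/LOC102724428 probe set at 1, 2 and 6 h, while no gene for a CRTC coactivator or for CREBBP, EP300 or CREB1 passed the test with formoterol. Among the 8 genes, 0, 2, 2 and 0 passed at 1, 2, 6 and 18 h, all higher, against 1.34%, 4.60%, 4.81% and 1.11% of all genes (limma, Benjamini-Hochberg adjusted p under 0.05 in either direction). With budesonide 0 of 8 passed at each time, against 0.998%, 3.94%, 14.2% and 18.3% of all genes. At an unadjusted p under 0.05 it was 8 of the 32 pairs of gene and time. The shares of all genes do not apply to that threshold, so this count cannot be set against them. With both drugs against untreated cells, 0, 2, 2 and 1 passed, against 2.76%, 9.49%, 18.6% and 21.0%. These were SIK2 higher at 2 and 6 h, CREM higher at 6 h and lower at 18 h, and CREB1 lower at 2 h. In these bulk samples, fewer expressing cells and less RNA per cell cannot be told apart. The 3 comparisons share their untreated arrays, so their values are not independent. The median difference of the 8 genes lay between -0.16 and 0.09 over these 12 comparisons, and that of all genes between -0.02 and 0.03.

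**Figure D1:**
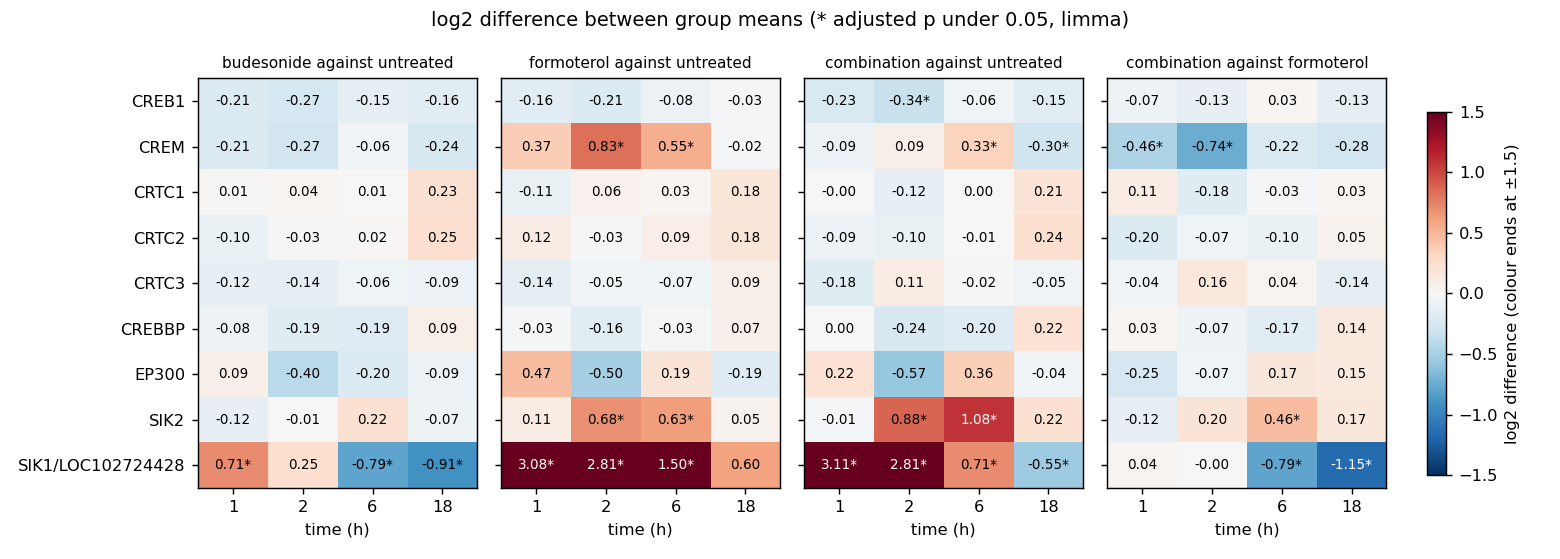
Differences of group means in log2 units (n = 4 arrays per group) for the 8 genes and the SIK1/LOC102724428 probe set, with time on the horizontal axis, a panel for each comparison and an asterisk where the adjusted p from limma was under 0.05. Asterisks in the formoterol panel stand only on CREM, SIK2 and the SIK1/LOC102724428 probe set, and with both drugs against formoterol CREM is lower at 1 and 2 h while SIK2 is higher at 6 h.

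CREM encodes the cyclic AMP-responsive element modulator, whose transcripts make both activators and repressors. At 2 h its levels in untreated cells were 7.19, 7.11, 6.97 and 7.03 on the 4 arrays, and with formoterol they were 8.05, 7.98, 7.73 and 7.87. All formoterol arrays lay above all untreated ones. CREM thus stood 0.83 ± 0.11 (SE, n = 4 arrays per group) log2 units higher, or 1.78-fold (adjusted p = 1.82e-08, limma). At 6 h the formoterol arrays read 7.72, 8.13, 7.72 and 7.69 against 7.34, 7.46, 7.24 and 7.03 untreated, again without overlap, and CREM was higher by 0.55 ± 0.11 (adjusted p = 0.000212). At 1 h the formoterol arrays (7.62, 7.82, 7.59 and 7.26) overlapped the untreated ones (7.18, 7.26, 7.28 and 7.08) through 1 array. The difference of 0.37 ± 0.11 did not pass (adjusted p = 0.0711), but it did with the replicate number as a block (adjusted p = 0.00635). At 18 h the formoterol mean was 7.22 against 7.24 untreated, a difference with a 95% interval from -0.23 to 0.19. The effect of formoterol on CREM differed over the 4 times by limma's moderated F test (adjusted p = 0.000482), which 4.51% of genes passed.

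With budesonide alone, CREM had lower means at all 4 times, by 0.21, 0.27, 0.06 and 0.24 log2 units, and none passed (adjusted p between 0.128 and 1.00). At 2 h the 4 budesonide arrays (6.90, 6.81, 6.79 and 6.71) nonetheless lay below all untreated arrays. With replicate numbers as a block within each time that difference passed (adjusted p = 0.0143), and so did the one at 18 h (adjusted p = 0.0142), times at which same-numbered arrays deviated together.

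With both drugs CREM did not pass against untreated cells at 2 h. The arrays read 7.26, 7.31, 7.06 and 7.03, within 0.09 ± 0.11 of untreated cells, and every one lay below every formoterol array. The combination was lower than formoterol by 0.74 ± 0.11 at 2 h (adjusted p = 2.84e-07) and by 0.46 ± 0.11 at 1 h (adjusted p = 0.00616), where the arrays of the groups overlapped. At 6 h the combination arrays (7.51, 7.66, 7.75 and 7.46) lay above the untreated ones, by 0.33 ± 0.11 (adjusted p = 0.0199). At 18 h they read 6.72, 7.13, 6.95 and 6.95, lower than untreated by 0.30 ± 0.11 (adjusted p = 0.0317) with overlapping arrays. The differences from formoterol at 6 and 18 h, -0.22 ± 0.11 and -0.28, did not pass (adjusted p = 0.210 and 0.0556). With the block within each time both passed (adjusted p = 0.0302 and 0.00286). Same-numbered arrays did not correlate above 0.1 in every pair there (mean r 0.232 and 0.112). Against budesonide alone CREM was higher with both drugs, by 0.36 at 2 h and 0.39 at 6 h (adjusted p = 0.0329 and 0.0136).

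Whether the drugs' effects on CREM add was tested by the interaction, the effect of both drugs less the effect of each alone. At 2 h it was -0.47 ± 0.15 and did not pass in the unpaired fit (adjusted p = 0.276). At that time same-numbered arrays deviated together in every pair, and with the replicate number as a block it passed (adjusted p = 0.0382, and 0.00700 with the block within each time). At 1, 6 and 18 h the interaction was -0.25, -0.16 and -0.05, each with an SE of 0.15, and did not pass. In all, 0 of 8 genes passed for the interaction at each of the 4 times, against 0.171%, 0.590%, 0.722% and 0.276% of all genes. CREM at 2 h was the 1 pair of 32 with an unadjusted p under 0.05, a threshold to which those shares do not apply.

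Some CREM calls rested on single arrays. Those of both drugs against budesonide were kept in 3 of 8 fits with 1 array left out at 2 h, where they ended without budesonide replicate 2, 3 or 4 or combination replicate 1 or 2 (0.31 to 0.36), and in 6 of 8 at 6 h. The call at 6 h with both drugs ended without untreated replicate 4 (0.25, adjusted p = 0.135) or without combination replicate 2 or 3 (0.31 and 0.28). The one at 18 h ended without untreated replicate 1 or 2 or combination replicate 1, 3 or 4 (-0.31 to -0.23). That at 1 h against formoterol ended without formoterol replicate 2 or combination replicate 4 (-0.38 and -0.37). The calls with formoterol at 2 and 6 h, and that of both drugs against formoterol at 2 h, were kept in each of 8 fits with 1 array left out.

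**Figure D2:**
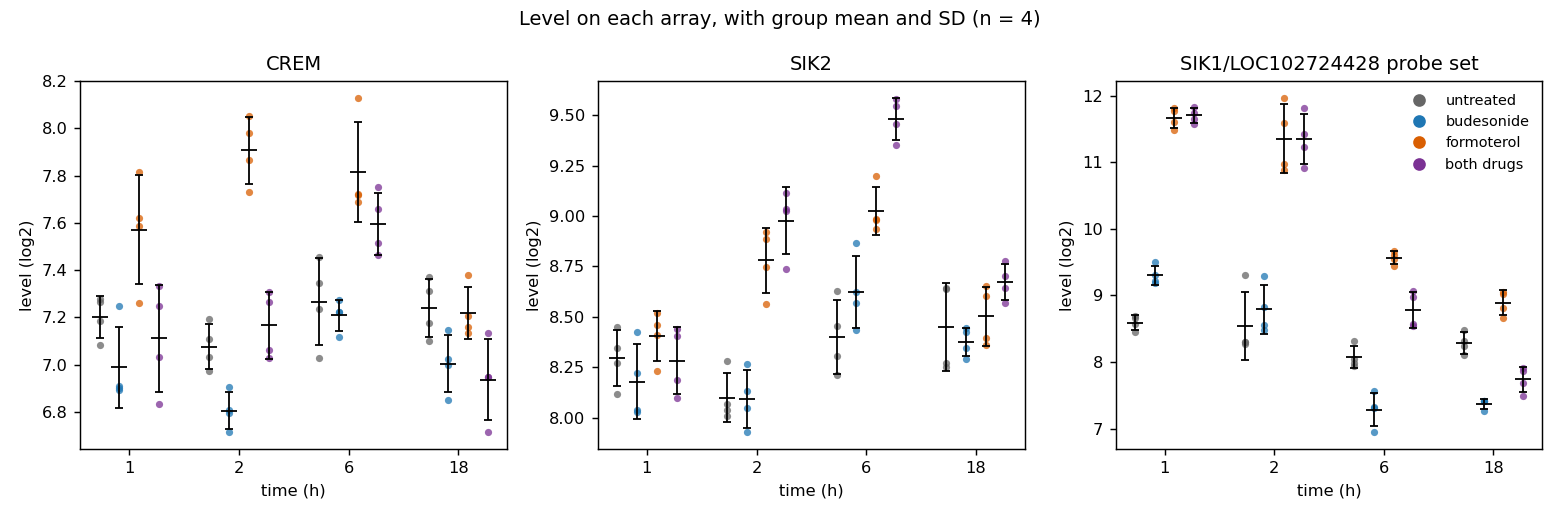
Level in log2 units on each array (points) with group mean and SD (bars, n = 4) against time in hours for CREM, SIK2 and the SIK1/LOC102724428 probe set, coloured by treatment, on axes that differ between panels. Formoterol arrays stand apart at 2 h in all panels, and the arrays with both drugs lie beside untreated cells for CREM but beside formoterol for the other 2.

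Ordered by their means, the 16 groups gave CREM its highest levels with formoterol at 2 h (7.91 ± 0.14, SD) and 6 h (7.82 ± 0.21), which do not differ beyond their spread. Both drugs at 6 h (7.60 ± 0.13) and formoterol at 1 h (7.57 ± 0.23) followed. The remaining 12 groups ran from 7.27 ± 0.18 in untreated cells at 6 h to 6.81 ± 0.08 with budesonide at 2 h, and no neighbours among them differed by more than the larger SD.

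The 10 CREM probe sets were compared because they can report different transcripts. The annotation used names a target sequence for each, but does not list the CREM transcripts each detects. It names the same target sequence for 11740028_a_at and 11740029_x_at. With formoterol at 2 h 8 of 10 passed, all higher, by 0.48 to 1.00, against 2.82% of all probe sets in either direction. Among the 8, 11731026_a_at, 11741321_a_at and 11741503_a_at had mean levels of 2.51, 2.22 and 2.21, below the lower quartile of all values (3.02). Probe set 11740028_a_at read 5.60, 5.81, 5.78 and 5.75 untreated, 6.45, 6.83, 6.73 and 6.92 with formoterol and 5.66, 6.08, 6.09 and 5.95 with both drugs. Formoterol stood apart from both other groups, and its difference from untreated, 1.00 ± 0.14 (adjusted p = 5.36e-07), was the largest of the 10. With 1 array left out, 7 of the 8 calls were kept in every fit, and that of 11758522_s_at ended without untreated replicate 1 (0.42). The differences of 11724932_at (0.19 ± 0.11) and 11740029_x_at (0.38 ± 0.15) did not pass. At 6 h 5 of 10 passed, by 0.49 to 0.58 (3.02% of all probe sets), at 1 h 1 of 10 (0.913%) and at 18 h 0 of 10 (0.559%).

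At 18 h 11724932_at read 6.31, 6.44, 6.02 and 6.06 untreated, 5.73, 5.79, 5.89 and 5.69 with budesonide and 5.54, 5.90, 5.53 and 5.50 with both drugs. All arrays with budesonide, alone or with formoterol, lay below all untreated ones. This probe set fell by 0.39 at 6 h and by 0.43 at 18 h with budesonide alone and by 0.59 at 18 h with both drugs. No other CREM probe set passed with budesonide alone at any time (9.71% and 13.1% of all probe sets passed at 6 and 18 h). With both drugs at 18 h, 11731027_s_at (-0.365) and 11740030_s_at (-0.304) passed as well, where 15.3% of all probe sets passed. With both drugs at 2 h, 2 of 10 probe sets passed (6.17% of all probe sets), 11741321_a_at by 0.47 and 11741503_a_at by 0.49. Their mean levels over all arrays were 2.22 and 2.21, below the lower quartile of all values, and both calls ended without combination replicate 2 (0.34 and 0.32). Against formoterol at 2 h, 6 of 10 probe sets were lower with both drugs, by 0.57 to 0.79 (2.79% of all probe sets passed in either direction).

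These probe sets were set against each other by exact two-sided permutation tests, 540 tests for 45 pairs and 12 comparisons. Each test took the difference between the probe sets of a pair on each array and permuted the arrays between the compared groups. Arrays were not matched by replicate number. The smallest p the design allows, 0.0286, was reached by 11 of 45 pairs with formoterol at 2 h, and after adjustment over the 540 tests the smallest p was 0.417. With so high a smallest p, adjustment over 540 tests could be passed only if most of them reached it, so these tests show neither that the probe sets differ nor that they do not.

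**Figure D3:**
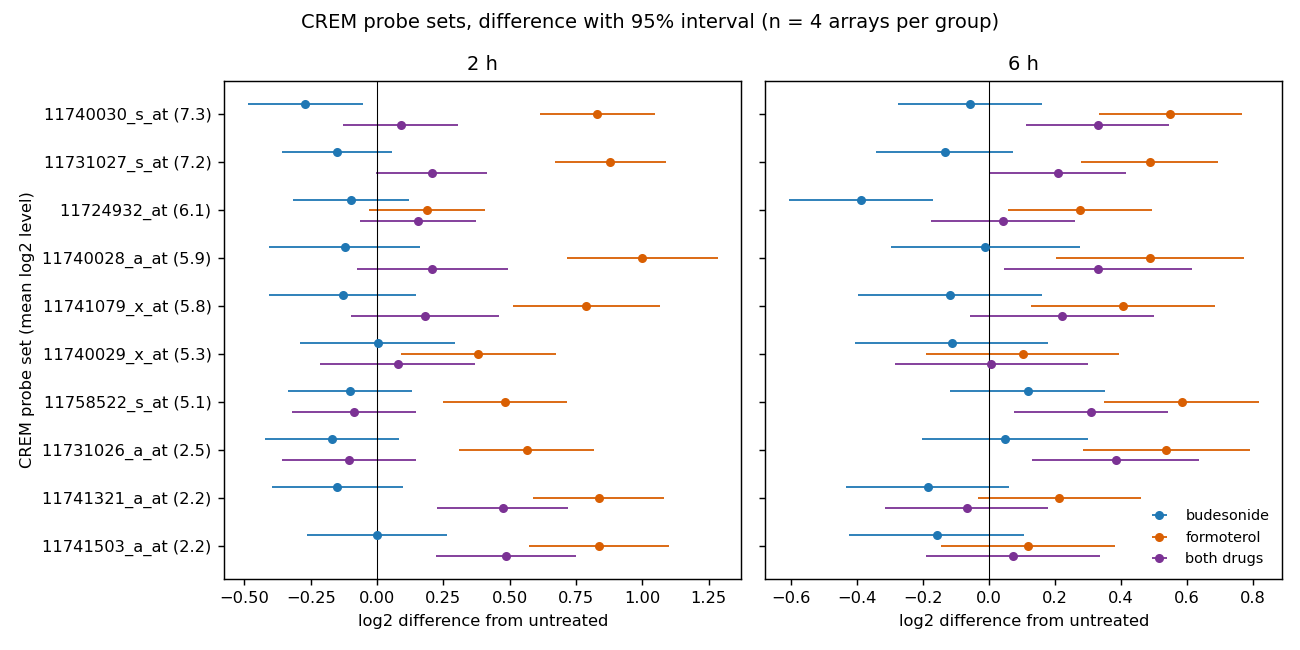
Differences from untreated cells in log2 units with 95% intervals from limma (n = 4 arrays per group) for the 10 CREM probe sets at 2 and 6 h, labelled with their mean level over all arrays and coloured by treatment. At 2 h the formoterol points lie to the right of 0 for all 10 probe sets, from 0.19 to 1.00, and those with both drugs lie between -0.10 and 0.49.

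CREB1 encodes the founding factor of the family, which is regulated mainly by phosphorylation. Its levels in untreated cells at 2 h were 7.62, 8.03, 7.96 and 8.03, and with both drugs 7.53, 7.68, 7.54 and 7.56. The groups overlapped through untreated replicate 1. The difference of -0.34 ± 0.10 passed (adjusted p = 0.0232) but failed in 6 of 8 fits with 1 array left out, all except those without untreated replicate 1 (-0.43) and combination replicate 2. CREB1 means were also lower than untreated in the other 11 comparisons of a treatment with untreated cells, by 0.03 to 0.27, and none of those passed in the main fit. With both drugs at 18 h CREB1 passed when its probe sets were averaged (-0.293, adjusted p = 0.00845). There it also passed without all replicate 1 arrays (-0.288, adjusted p = 0.0295). With budesonide at 2 h the value was -0.27 ± 0.10, which did not pass (adjusted p = 0.182), but did with the block within each time (adjusted p = 0.0252) and without untreated replicate 1 (-0.37, adjusted p = 0.0339). Of the 7 CREB1 probe sets, 1 passed with both drugs at 2 h, where 6.17% of all probe sets passed in either direction.

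The CRTC coactivators, which bind CREB factors when dephosphorylated, did not pass in any comparison with untreated cells. CRTC1 group means ran from 5.85 to 6.15 over the 16 groups, those of CRTC2 from 5.08 to 5.45 and those of CRTC3 from 7.89 to 8.32. Their pooled within-group SDs were 0.16, 0.16 and 0.17. At 18 h CRTC1 read 0.23 and CRTC2 0.25 above untreated with budesonide, and CRTC2 read 0.24 above with both drugs. Those 3 values passed with the block within each time (adjusted p = 0.0387, 0.0232 and 0.0336) and not in the fit without it, and CRTC1 also passed without untreated replicate 1 (0.33, adjusted p = 0.0420). CRTC3 with both drugs was 0.25 above budesonide at 2 h and passed under the same block (adjusted p = 0.0122).

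CREBBP, the CREB-binding protein gene, had group means from 8.71 to 9.25. Its differences from untreated cells over the 12 comparisons lay between -0.24 and 0.22 and did not pass. The effect of both drugs nevertheless differed over time by the F test (adjusted p = 0.0212), which 22.6% of genes passed: it was 0.00, -0.24, -0.20 and 0.22 at 1, 2, 6 and 18 h. With the replicate block the values at 2 and 18 h, times at which the numbers pair the arrays, passed (adjusted p = 0.0421 and 0.0405). With the probe sets of the gene averaged, budesonide at 2 h passed (-0.34, adjusted p = 0.0407). Taking CREBBP and the 3 CRTC genes together, the 95% intervals of all 48 differences from untreated cells lay between -0.43 and 0.49 log2 units.

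EP300, a paralog of CREBBP, had the widest scatter of the 8 genes, with a pooled within-group SD of 0.51. At 2 h its untreated arrays read 7.36, 6.31, 6.13 and 5.95, and those with both drugs read 6.59, 5.84, 6.07 and 4.97. Replicate 1 was the highest array in 11 of the 16 groups and replicate 4 the lowest in 13. The beta-actin gap was widest in replicate 1 in 12 of the 16, and its part in the scatter was not tested. Differences from untreated cells ran from -0.57 to 0.47, with intervals between -1.24 and 1.14, so a difference of 1 log2 unit lies inside the widest of them. With the block within each time, EP300 was lower with both drugs than untreated at 2 h (-0.57, adjusted p = 0.0139) and higher than with budesonide at 6 h (0.56, adjusted p = 0.0182).

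**Figure D4:**
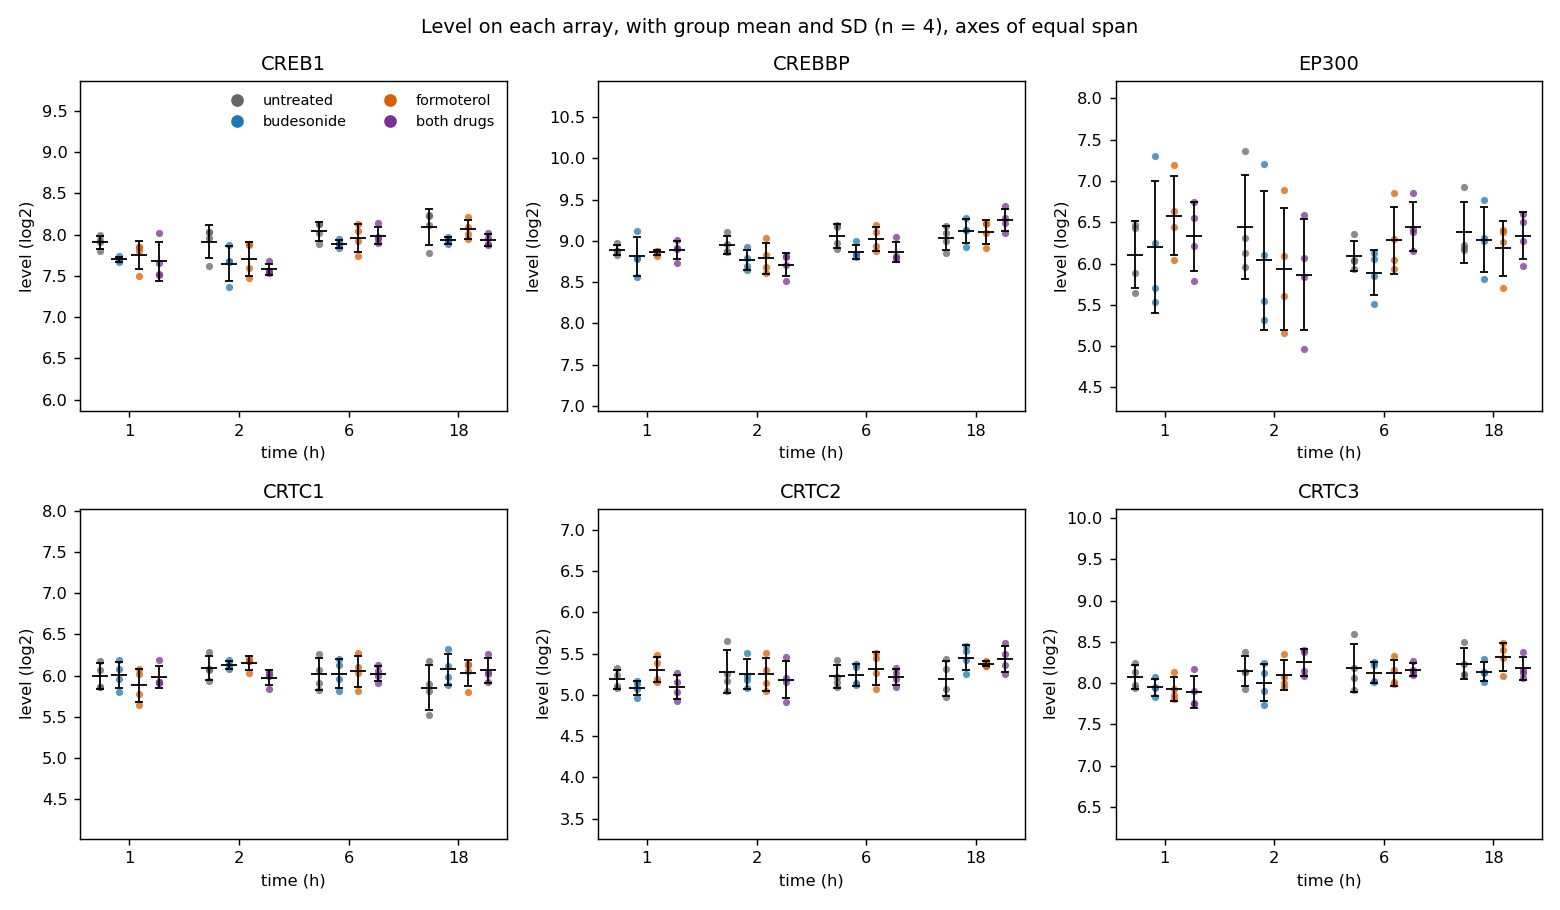
Level in log2 units on each array (points) with group mean and SD (bars, n = 4) against time in hours for CREB1, CREBBP, EP300 and the 3 CRTC genes, coloured by treatment, with vertical axes of equal span. Groups overlap at nearly every time, and EP300 arrays are the most scattered.

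The SIK1/LOC102724428 probe set had the largest differences in the set. SIK1 encodes a kinase that phosphorylates CRTC coactivators and class IIa histone deacetylases. At 1 h its levels were 8.69, 8.45, 8.66 and 8.57 in untreated cells and 11.81, 11.61, 11.77 and 11.49 with formoterol. The groups were far apart, and the difference of 3.08 ± 0.18 was 8.45-fold (adjusted p = 5.57e-20 in the fit of all 49395 probe sets, of which 0.913% passed). It was 2.81 ± 0.18 at 2 h, or 7.03-fold (adjusted p = 1.47e-18), and at 6 h the level was 2.83-fold higher (adjusted p = 1.12e-08). With both drugs it was 8.66-fold higher than untreated at 1 h and 7.01-fold at 2 h, and 0.71 ± 0.18 higher at 6 h (adjusted p = 1.01e-20, 4.95e-19 and 0.00283), where 1.71%, 6.17% and 13.6% of probe sets passed. At 18 h the formoterol arrays (9.02, 8.66, 8.81 and 9.06) still lay above the untreated ones (8.48, 8.32, 8.10 and 8.24). The difference of 0.60 ± 0.18 did not pass in the main fit (adjusted p = 0.135). It did with the replicate number as a block (adjusted p = 0.0370, and 2.69e-06 within each time). Same-numbered arrays did not correlate above 0.1 in every pair of this comparison (mean r 0.117).

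At 2 h replicate 3 was the highest array of this probe set in each treatment, at 9.30 untreated, 9.29 with budesonide, 11.97 with formoterol and 11.83 with both drugs. The other untreated arrays at that time read 8.27 to 8.31. The beta-actin gap was also widest in replicate 3 in all 4 groups at 2 h, and its part in these levels was not tested. Leaving out untreated replicate 3 or any other of the 8 arrays gave formoterol differences between 2.61 and 3.07, all of which passed.

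With both drugs the SIK1/LOC102724428 probe set was close to its level with formoterol at 1 and 2 h and lower at 6 and 18 h. The difference between both drugs and formoterol was 0.04 at 1 h and -0.00 at 2 h, with 95% intervals from -0.33 to 0.40 and from -0.37 to 0.36. At 6 h the arrays with both drugs (9.07, 8.56, 8.54 and 8.97) lay below every formoterol array (9.67, 9.61, 9.55 and 9.45), by 0.79 ± 0.18 (adjusted p = 0.00119). At 18 h they read 7.92, 7.68, 7.49 and 7.86 and were lower by 1.15 ± 0.18 (adjusted p = 1.53e-06). In these 4 comparisons 0.877%, 2.79%, 9.37% and 12.5% of probe sets passed. At 18 h both drugs were also below untreated cells, by 0.55 ± 0.18 (adjusted p = 0.0286), where 15.3% of probe sets passed. That call ended without untreated replicate 1 or 2 or combination replicate 2 or 3 (-0.54 to -0.46).

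Budesonide alone moved this probe set in opposite directions over time. At 1 h it read 9.50, 9.19, 9.22 and 9.31, all above the untreated arrays, a difference of 0.71 ± 0.18 (adjusted p = 0.0404), where 0.581% of probe sets passed. At 2 h the difference of 0.25 ± 0.18 did not pass (2.41% of probe sets did). At 6 h it read 7.56, 7.32, 6.95 and 7.31 and at 18 h 7.41, 7.41, 7.26 and 7.41, in both cases below all untreated arrays. The falls were 0.79 and 0.91 (adjusted p = 0.00123 and 0.000115). The F test over the 4 times gave an adjusted p of 7.91e-07 for budesonide, 4.61e-11 for formoterol and 8.86e-19 for both drugs, which 7.99%, 2.39% and 15.3% of probe sets passed. The rise at 1 h passed in 0 of 8 fits with any 1 of its arrays left out (0.65 to 0.75) and in 5 of 7 other settings. The falls at 6 and 18 h passed in all of these.

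The interaction of the drugs on this probe set was -0.68 ± 0.26 at 1 h, -0.25 at 2 h, 0.00 at 6 h and -0.24 at 18 h, and none passed, while 0.111%, 0.344%, 0.431% and 0.174% of probe sets did. Fitted on the 4 groups at 1 h alone, that at 1 h passed (adjusted p = 0.0319). It also passed with the block within each time (adjusted p = 0.000664), where same-numbered arrays did not correlate above 0.1 in every pair (mean r 0.266). Over the 16 groups, its highest means were those of both drugs (11.71 ± 0.11, SD) and formoterol (11.67 ± 0.15) at 1 h and of formoterol (11.36 ± 0.52) and both drugs (11.35 ± 0.38) at 2 h, which do not differ beyond their spread from one neighbour to the next. A gap of 1.78 separated them from formoterol at 6 h (9.57 ± 0.10), and the lowest groups were budesonide at 18 h (7.37 ± 0.07) and 6 h (7.28 ± 0.25).

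SIK2, a relative of SIK1 that also phosphorylates CRTC coactivators, rose at 2 and 6 h with formoterol and with both drugs. At 2 h untreated arrays read 8.07, 8.04, 8.01 and 8.28, formoterol arrays 8.75, 8.92, 8.56 and 8.89, and arrays with both drugs 9.02, 9.11, 8.74 and 9.04. Formoterol and both drugs each lay wholly above untreated cells, by 0.68 ± 0.10 and 0.88 ± 0.10 (adjusted p = 1.38e-06 and 7.14e-10). Between those 2 groups the difference of 0.20 ± 0.10 did not pass (adjusted p = 0.572).

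At 6 h untreated SIK2 read 8.63, 8.46, 8.31 and 8.21, formoterol 8.99, 9.20, 8.93 and 8.98, and both drugs 9.58, 9.35, 9.55 and 9.45. The 3 groups did not overlap. SIK2 was higher than untreated by 0.63 ± 0.10 with formoterol (adjusted p = 1.11e-05) and by 1.08 ± 0.10, or 2.12-fold, with both drugs (adjusted p = 3.11e-13). The combination exceeded formoterol by 0.46 ± 0.10 (adjusted p = 0.000658), and these calls were kept in each of 8 fits with 1 array left out. Budesonide alone gave 0.22 ± 0.10 at 6 h, which did not pass (adjusted p = 0.166), and the interaction was 0.23 ± 0.15 (adjusted p = 1.00). At 1 h all treatments lay within 0.12 of untreated cells, and at 18 h both drugs gave 0.22 ± 0.10 (adjusted p = 0.130, and 0.0416 with the block within each time).

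The effect on SIK2 differed over time for formoterol (F test, adjusted p = 0.000960), not for budesonide (adjusted p = 0.388), and for both drugs (adjusted p = 4.09e-09). Against budesonide alone, the combination was higher at 2 and 6 h by 0.88 and 0.86 (adjusted p = 1.35e-09 and 4.40e-09). At 18 h the arrays with both drugs again lay above those with budesonide, by 0.30 ± 0.10, which did not pass (adjusted p = 0.258) except with the block within each time (adjusted p = 0.0345) or fitted on the compared groups alone (adjusted p = 0.0475). CREM and SIK2 were the 2 of 8 genes that passed in that comparison at 2 and 6 h, against 4.38% and 6.72% of genes, and 0 of 8 passed at 1 and 18 h (1.47% and 0.651%). Against formoterol, 1, 1, 1 and 0 of 8 passed at 1, 2, 6 and 18 h, against 1.27%, 4.15%, 13.4% and 17.6%, and the directions were opposite, CREM lower at 1 and 2 h and SIK2 higher at 6 h.

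SIK2 has 6 probe sets, and with formoterol at 2 h 5 of them passed, higher by 0.52 to 0.79, against 2.82% of all probe sets in either direction. The one that did not pass, 11731546_at, had a mean level of 2.49, below the lower quartile. In untreated cells 0 of 8 genes differed between 1 h and 2, 6 or 18 h, where 0.0165%, 0.210% and 0.364% of all genes did.

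By correlation over the 16 group means, among 501 genes with an SD of group means of at least 0.5 and a level above the median, CREM was most like ISG20 (r = 0.847), CYP26B1 (0.838), MTARC1 (0.787), NFKBIZ (0.786) and CD24 (0.772). SIK2 was most like SH3BP5 (0.884), IGFBP4 (0.874), IL15 (0.855), ADARB1 (0.821) and EPSTI1 (0.799). The SIK1/LOC102724428 probe set was most like TBX3 (0.956), TSC22D1 (0.953), RHOB (0.952), TOB1 (0.946) and NR4A1 (0.935). No gene stood in more than 1 of these lists, and CREM and the SIK1/LOC102724428 probe set had an r of 0.428 with each other. The points share their arrays and time course, and these values are descriptions.

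Genes known to lie downstream of the pathway passed in larger numbers. This list and those below were chosen with earlier results of these data known, so their counts are descriptions. Of 30 genes commonly induced through CREB, 28 were measured, and 16, 19, 10 and 5 of them were higher with formoterol at 1, 2, 6 and 18 h, where 1.02%, 2.31%, 2.76% and 0.469% of all genes were higher, with a median difference at 2 h of 1.49 against 0.00 over all genes. Besides NR4A3, the orphan receptor NR4A2 rose by 4.70 and the cytokine IL6 by 4.04 at 1 h, and the phosphodiesterase PDE4D, which degrades cyclic AMP, was 3.23 higher at 2 h and 0.89 higher at 18 h. The noncoding RNA LINC00473 rose by 5.13 at 2 h. EGR1, an immediate early gene, fell by 2.78 at 1 h and was the only one of the 28 to fall at 1, 2 and 6 h. With both drugs 16, 16, 13 and 8 were higher and 1, 3, 4 and 4 lower, against 1.63%, 3.84%, 8.61% and 10.3% of all genes higher and 1.13%, 5.65%, 9.95% and 10.7% lower. NR4A3 then rose by 4.51 at 2 h, while PDE4B fell by 0.96 at 2 h. IL6 had a mean of 7.24 with both drugs at 1 h, against 9.93 with formoterol and 5.89 untreated. At 6 h IL6 fell by 1.59 with both drugs, to 4.22, where it was 5.84 with formoterol and 5.81 untreated. With budesonide alone 6, 7, 8 and 6 were higher and 4, 5, 3 and 5 lower, against 0.667%, 1.69%, 6.12% and 8.56% of all genes higher and 0.331%, 2.26%, 8.12% and 9.78% lower. The higher ones at 1 h included KLF4 (3.91) and PER1 (2.73), which are also glucocorticoid targets.

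Of 24 genes for kinases, phosphatases and inhibitors that act on CREB or its kinase, 0 passed with formoterol at 1 and 2 h. At 6 and 18 h 1 each passed, the phosphatase subunit PPP1CC (-0.14) and the protein kinase A regulatory subunit PRKAR2B (-0.49). Of all genes 1.34%, 4.60%, 4.81% and 1.11% passed at 1, 2, 6 and 18 h. With both drugs 3 were higher and 8 lower at 6 h, where 8.61% of all genes were higher and 9.95% lower. PPP1CB, a catalytic subunit of protein phosphatase 1, rose by 0.67, and CAMK2D fell by 0.74. With budesonide 4 were higher and 5 lower at 6 h, where 6.12% of all genes were higher and 8.12% lower, and PKIB, a protein kinase A inhibitor, fell by 0.95 at 18 h, from a mean of 3.93 to 2.98.

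Of 24 regulators of SIK kinases and CRTC coactivators, 0 passed with formoterol at 1, 2 and 18 h, against 1.34%, 4.60% and 1.11% of all genes. At 6 h 3 passed, against 4.81% of all genes: HDAC4 rose by 0.50, SIK3, the third kinase of the family, rose by 0.37, and HDAC5 fell by 0.67. RCAN1, an inhibitor of calcineurin, the phosphatase that releases CRTC coactivators, was 0.49 higher with both drugs at 1 h and 0.33 lower at 18 h. Its relative RCAN2 was lower by 1.51 with budesonide and by 1.58 with both drugs at 18 h. In that list 7 of 24 were lower and 0 higher at 18 h in each of those comparisons, where 9.78% of all genes were lower and 8.56% higher with budesonide, and 10.7% and 10.3% with both drugs.

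Among 18 other CREB and ATF family genes, 2, 3, 3 and 1 were higher with formoterol at 1, 2, 6 and 18 h, against 1.02%, 2.31%, 2.76% and 0.469% of all genes, and 1 was lower, ATF4 at 6 h (-0.28). ATF3, a stress-induced repressor, rose by 1.95 at 1 h and 1.81 at 2 h, and NFIL3, a leucine zipper repressor, rose by 1.06 at 1 h. CREB3L2, a membrane-bound factor, rose by 0.45 at 2 h and 0.78 at 6 h. CREB5 rose by 1.31 with formoterol at 6 h and fell by 2.53 with budesonide and by 2.19 with both drugs at 18 h, where its mean was 3.63 and 3.98 against 6.16 untreated. NFIL3 was higher with both drugs at all 4 times, by 1.07 to 1.55.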

How the data were processed

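RNA levels in BEAS-2B cells were measured on 64 Affymetrix arrays in 16 groups of 4. The authors deposited log2 values per probe set, made with RMA (robust multi-array average) per the submitters' processing notes. No version is given, and a joint normalization of the 64 arrays is not stated in the labels used here.

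Of 49395 probe sets, 44994 carried 1 gene symbol. The one with the highest mean over all arrays stood for each of 18132 genes. limma 3.58.1 in R 4.3.3 (with the data.table package, version 1.17.8) fitted a mean for each group with an intensity trend (48 residual degrees of freedom), and 36 contrasts and an F test over times were adjusted over all genes by Benjamini-Hochberg, two-sided, at 0.05. SIK1 and CREM probe sets were tested in the same fit on all probe sets. The script was tested on simulated data. The members, gene lists and tests were chosen with earlier results of these data known.

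Genes are named by rule: all members, the 5 most alike over group means (SD at least 0.5, mean level not below the overall probe set median) for CREM, SIK1 and any other member whose group means had an SD of at least 0.3, and up to 4 called changes per direction, list and treatment, of which a part is printed. Genes that check the drugs were named too.

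The labels number replicates 1 to 4 in every group without saying what a number shares. Deviations from group means of same-numbered arrays, over all genes, correlated above 0.1 in every pair in 12 of 24 comparisons, all those at 2 h among them. In these the numbers are taken to pair the arrays. The mean r was positive in all 24 (0.112 to 0.442), so pairing in the rest is not excluded. The main fit has no block; the alternatives add the replicate number, over all times or within each time. The labels call the arrays independent determinations, and p-values measure the spread between them. Arrays give no depth, and their number limits the precision.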

Additional observations from a re-analysis of the deposited data

Results flagged for a closer look

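Over the 8 genes and the SIK1/LOC102724428 probe set, 9 of 144 groups of 4 arrays held an array that stood apart from the other 3 by Dixon's criterion, where chance gives about 5 percent. For CREM these were budesonide at 1 h, where replicate 2 read 7.25 and the others 6.89 to 6.91, and formoterol at 6 h, where replicate 2 read 8.13 and the others 7.69 to 7.72. For CREB1 it was formoterol at 1 h, where replicate 1 read 7.503 and the others 7.80 to 7.85. For CRTC1 it was both drugs at 1 h, where replicate 1 read 6.19. CREBBP replicate 1 stood apart at 6 h with budesonide (8.997) and with both drugs (9.04). EP300 replicate 1 stood apart in untreated cells at 18 h (6.93). For the SIK1/LOC102724428 probe set, untreated replicate 3 at 2 h read 9.30, and budesonide replicate 3 at 18 h read 7.26 against 7.41 in the others. Replicate 1 was the array apart in 5 of the 9 groups.

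Effects that differed between the 4 times, by limma's moderated F test with adjustment over all genes or all probe sets, were those of formoterol and of both drugs on CREM (adjusted p = 0.000482 and 0.00547) and on SIK2 (adjusted p = 0.000960 and 4.09e-09), and that of both drugs on CREBBP (adjusted p = 0.0212). The SIK1/LOC102724428 probe set changed over time with budesonide, formoterol and both drugs (adjusted p = 7.91e-07, 4.61e-11 and 8.86e-19).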

How the results depend on the processing

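The pairs of gene and time that passed numbered 0 for budesonide, 4 for formoterol, 5 for both drugs, 4 for both against budesonide, 3 for both against formoterol and 0 for the interaction. With the replicate block they were 1 for budesonide and 1 for the interaction. That block also added CREM with formoterol at 1 h (adjusted p = 0.00635, and 0.000909 within each time). It added CREBBP with both drugs at 2 and 18 h (0.0421 and 0.0405) and CREM for both against formoterol at 18 h (0.0110). With the block within each time the pairs that passed numbered 6 for budesonide, 11 for both drugs and 1 for the interaction. They numbered 7 for both against budesonide and 6 for both against formoterol. Averaging a gene's probe sets gave 1 for budesonide, 5 for both against formoterol and 1 for the interaction, and without all replicate 1 arrays 2 were left for both against budesonide. Leaving out 1 array gave 0 to 1 for budesonide, 4 to 5 for formoterol, 4 to 5 for both drugs, 3 to 4 for both against budesonide, 3 to 4 for both against formoterol and 0 for the interaction. CREBBP with both drugs at 6 h turned from -0.20 to 0.0139 when its probe sets were averaged, neither of which passed. The causes were not tested. Not every changed count is listed. Shares of all genes under the alternative settings are not given here, so these counts do not single out these genes. Other settings were array centring, repeated quantile normalization, dim genes left out, no intensity trend and the compared groups alone; the last ended the calls of CREB1 with both drugs at 2 h (adjusted p = 0.0725) and of CREM for both drugs against budesonide at 2 h and against formoterol at 1 h (0.0830 and 0.158). Repeated quantile normalization ended those of CREM with both drugs at 18 h and against budesonide at 2 h (0.0658 and 0.0514). Without all replicate 1 arrays CREM lost 4 calls, among them both drugs against formoterol at 1 h (-0.42, adjusted p = 0.214), and kept those with formoterol at 2 and 6 h. Set against a sum of the effects formed on the linear scale, the SIK1/LOC102724428 level with both drugs differed by -0.07, -0.04, -0.55 and -0.62 log2 units at 1, 2, 6 and 18 h. Against a sum formed on the log2 scale it differed by -0.68, -0.25, 0.00 and -0.24 log2 units. Where same-numbered arrays did not correlate above 0.1 in every pair, the block within each time also gave calls. For the SIK1/LOC102724428 probe set these were formoterol at 18 h (adjusted p = 2.69e-06, and 0.0370 with the block over all times) and the interaction at 1 h (0.000664). For CREM they were both drugs against formoterol at 6 and 18 h (0.0302 and 0.00286). For CREBBP at 6 h they were budesonide (-0.19, adjusted p = 0.0189), both drugs (0.0114) and both against formoterol (0.0449). Of 264 pairs of gene and comparison, 216 passed under neither the main nor an alternative setting.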
